A study of Homo sapiens with 2 samples.

Results

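The family of miR-130a, miR-130b, miR-301a, miR-301b and miR-454 was profiled in A375, an established human melanoma cell line, by small RNA sequencing. Its members were taken as every row of the deposited table that belongs to the hairpins (precursors) hsa-mir-130a, hsa-mir-130b, hsa-mir-301a, hsa-mir-301b or hsa-mir-454, on either arm. This gave 9 rows of 1546, from 5 of 1095 hairpins: 5 rows of 3p arms and 4 of 5p arms (the species prefix hsa- is left out below after a name's first use). The rule uses no measured level. Of mir-130a only the 3p arm had a row, so its 5p arm could not be analysed. Both libraries came from A375 cells seeded at 1000000 per 10 cm dish, cultured for 24 h and then kept in DMSO, a solvent commonly used as vehicle, for 48 h. They form 1 group of 2 replicates, so no treatment was compared. The series as a whole concerns miRNAs acting on the BRAF-X1 mRNA.

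A miRNA is cut from a hairpin whose 2 arms (5p and 3p) can each give a mature strand. Usually 1 strand, the guide, is kept in Argonaute and pairs with target mRNAs through its seed, bases 2 to 8, while the passenger strand is mostly degraded. The 3p strands of this family share a seed and are therefore expected to recognise overlapping sets of mRNAs. In other cells miR-130a has been described as a repressor of antiangiogenic homeobox genes in endothelium, and miR-130b as a repressor of TP53INP1 in liver cancer.

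The mature 3p sequences are shown because the shared seed is what unites the family. They are RefSeq entries (GRCh38), available for 7 of the 9 rows. Capitals mark bases 2 to 8, counted from the 5′ end.
hsa-miR-130b-3p: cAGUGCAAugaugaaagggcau
hsa-miR-301a-3p: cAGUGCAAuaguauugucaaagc
hsa-miR-301b-3p: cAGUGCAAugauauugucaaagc
hsa-miR-454-3p: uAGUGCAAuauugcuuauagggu
The 4 strands were identical at 9 positions, namely the unbroken run from base 2 to base 9 and base 12. MiR-301a-3p and miR-301b-3p were near copies, identical at 21 of 23 bases over their whole length, with the substitutions A10G and G11A (the base of miR-301a-3p first). MiR-130b-3p matched miR-301b-3p at 13 of 22 bases and miR-301a-3p at 11 of 22. MiR-454-3p differed from the other 3 already at its first base and matched miR-301a-3p at 13 of 23 bases. How reads with mismatches were assigned is not given in the sources used here. Reads of miR-301a-3p and miR-301b-3p could therefore be split wrongly, and the lower of them is the more exposed. MiR-130a-3p had no sequence entry, so its likeness to miR-130b-3p was not compared. A wrong split of reads between miR-130a-3p and miR-130b-3p was thus not assessed.

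The 5p strands carried other seeds, again in capitals. They are shown because their levels are compared with the 3p strands below.
hsa-miR-130b-5p: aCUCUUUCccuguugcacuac
hsa-miR-301a-5p: gCUCUGACuuuauugcacuacu
hsa-miR-454-5p: aCCCUAUCaauauugucucugc
The seeds of these 3 strands all differed from each other and from that of the 3p strands.

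The hairpins lie at 3 loci in the GENCODE 29 annotation of GRCh38. The build behind the deposited values is not given in the sources used here. MIR301A (chromosome 17, 59151136 to 59151221) and MIR454 (chromosome 17, 59137758 to 59137872) lie on the minus strand, 13263 bp apart. Both fall in intron 1 of SKA2, in the sense direction. SKA2 encodes a subunit of the spindle and kinetochore complex that holds chromosomes to microtubules. MIR301B (chromosome 22, 21652981 to 21653058) and MIR130B (chromosome 22, 21653304 to 21653385) lie on the plus strand only 245 bp apart. In the noncoding transcript AP000553.1, MIR301B falls in intron 1 and MIR130B overlaps exon 2. MIR130A (chromosome 11, 57641198 to 57641286, plus strand) lies in intron 1 of the noncoding gene AP000662.1. Each paired locus thus holds mir-301a or mir-301b beside another family member.

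The depth was 10816826 read assignments in replicate 1 and 15428446 in replicate 2. Levels are in RPM, reads per 1000000 read assignments, where 1 read was worth 0.0924 and 0.0648 RPM. A count of 0 (3 reads allowed) would limit a miRNA to 0.277 and 0.194 RPM. Of 4 miRNAs chosen as melanocyte lineage markers, miR-204-5p (2766 and 2498 RPM) and miR-146a-5p (1551 and 2527 RPM) were present. MiR-211-5p, encoded in the melanocyte gene TRPM1, had 3 and 2 reads, and miR-137 had 6 in each. Whether the 4 are particular to that lineage was not tested, so these levels do not establish lineage identity. Of 12 markers of blood, endothelial, epithelial, liver, muscle and pluripotent cells, 8 were listed, and 3 reached 10 RPM in both libraries. Their summed level was 219 and 260 RPM, mostly miR-486-5p (171 and 200 RPM), with miR-451a at 1 and 0 reads. Their part in the family's levels was not tested. In such bulk libraries, fewer cells with a miRNA and less of it per cell cannot be told apart.

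All 5 of the 3p strands were present at 10 RPM or more in both libraries, a level that 335 of 1497 mature names reached (22.4%). Together they made up 1908 and 2090 RPM (1999 ± 129, SD, n = 2), or 0.191% and 0.209% of all read assignments. The 4 listed 5p strands summed to 171 and 130 RPM, which was 8.24% and 5.84% of the reads of both arms.

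The strand hsa-miR-301a-3p was the highest member, at 613 RPM in the first library and 634 RPM in the second. The strand hsa-miR-130a-3p stood at 564 and 607 RPM. The ranges of mean ± SD over the libraries (624 ± 14.7 and 586 ± 30.2 RPM) overlapped. Within each library miR-301a-3p was nevertheless the higher, by 1.09-fold (95% interval 1.05 to 1.13) in replicate 1 and 1.04-fold (1.02 to 1.07) in replicate 2, or 1.07 ± 0.030 (SD, n = 2). The strand hsa-miR-130b-3p followed at 467 and 524 RPM (496 ± 39.9), below miR-130a-3p in both libraries and with no overlap of mean ± SD. The strand hsa-miR-454-3p stood at 203 and 228 RPM (215 ± 17.7), clearly apart from the 3 above it. MiR-301b-3p was the lowest 3p strand, at 60.3 and 97.3 RPM (78.8 ± 26.2). The span from miR-301a-3p to miR-301b-3p, the near-identical strands, was 10.2-fold (95% interval 9.39 to 11.0) in replicate 1 and 6.52-fold (6.17 to 6.89) in replicate 2. Intervals on reads here and below are exact binomial (Clopper-Pearson) and cover counting error only, since reads copied by PCR are not independent molecules. Uneven ligation of adapters between sequences is not covered either, so ratios between strands are ratios of reads and may not equal those of molecules.

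Among all 1497 mature names ordered by mean level, miR-301a-3p ranked 78, miR-130a-3p 81, miR-130b-3p 89, miR-454-3p 122 and miR-301b-3p 183. The median level of the 335 expressed names was 105 RPM, so 4 of the 5 strands lay above it. Within the family's 3p reads, miR-301a-3p held 31.2% ± 1.28, miR-130a-3p 29.3% ± 0.376, miR-130b-3p 24.8% ± 0.400, miR-454-3p 10.8% ± 0.193 and miR-301b-3p 3.91% ± 1.06 (SD, n = 2). The composition was similar in both libraries except for miR-301b-3p, which held 3.16% and 4.65%.

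**Figure D1:**
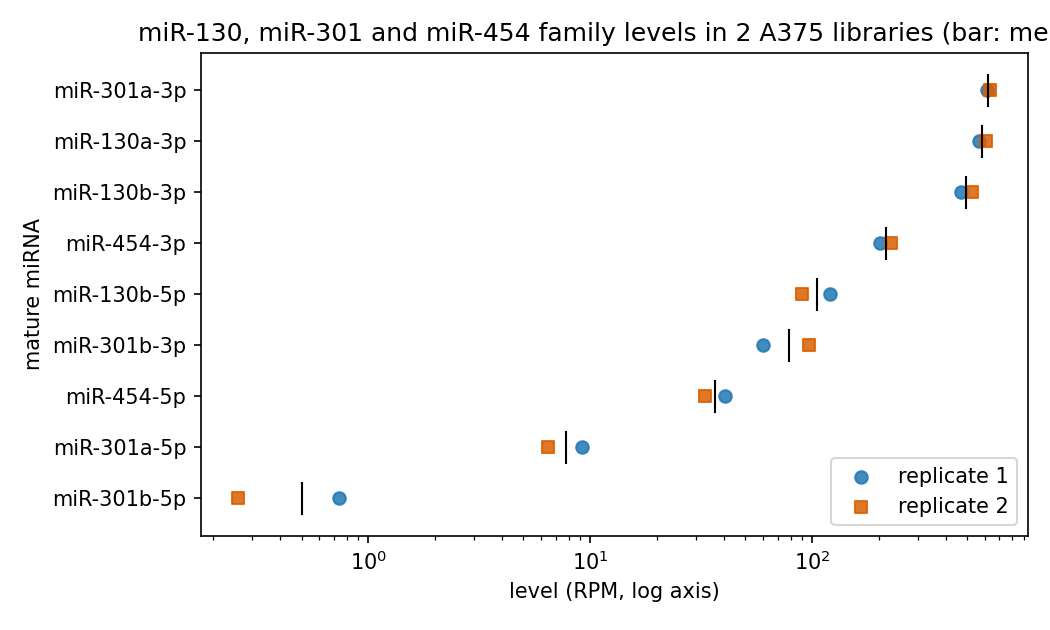
Level of each of the 9 family rows (RPM, log axis) in replicate 1 (circles) and replicate 2 (squares), with the mean as a black bar. In each of the 4 hairpins with both arms the 3p strand lies to the right of the 5p strand, and miR-301b-3p (60.3 and 97.3 RPM) and the 5p strands show the widest gaps between libraries.

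The paired loci were then compared. The 3p strands from the SKA2 intron (miR-301a-3p and miR-454-3p) summed to 816 and 862 RPM, and those of the chromosome 22 locus (miR-130b-3p and miR-301b-3p) to 528 and 621 RPM. The SKA2 pair was the higher in both libraries, by 1.55-fold (1.495 to 1.599) in replicate 1 and 1.39-fold (1.35 to 1.42) in replicate 2, or 1.47 ± 0.112 (SD, n = 2). MiR-301a-3p alone, at 613 and 634 RPM, lay above the sum of the other pair in each library. In replicate 2 the margin was small (634 against 621 RPM), and no interval was computed for it. Over samples the difference could not reach significance. Each library holds both loci, and an exact permutation test that flips the sign of 2 within-library differences gives at best a two-sided p of 0.5. The ratio itself moved by 1.11-fold between the libraries (Fisher's exact test of the reads, two-sided, adjusted p = 1.66e-06 over the 9 ratios computed), a shift beyond counting error though a small one.

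The passenger strands had the opposite order. The 5p strands of the chromosome 22 locus summed to 122 and 90.3 RPM, nearly all of it miR-130b-5p, against 49.6 and 39.3 RPM for the SKA2 pair. The SKA2 pair over the other pair was 0.407 (0.367 to 0.450) and 0.436 (0.395 to 0.480) for these strands. With both arms counted the SKA2 pair remained the higher, by 1.33-fold and 1.27-fold. When each miRNA of a pair was given equal weight (mean of log2 levels), the ratio was 1.88, because the low miR-301b-3p then counts as much as miR-130b-3p.

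Within each pair the members were unequal. MiR-301a-3p stood above miR-454-3p by 3.03-fold (2.88 to 3.18) and 2.78-fold (2.68 to 2.89). At the other locus miR-130b-3p stood above miR-301b-3p by 7.75-fold (7.15 to 8.43) and 5.38-fold (5.10 to 5.69). So by reads the 3p strand of mir-301a was the higher in the SKA2 intron, and that of its paralog mir-301b the lower on chromosome 22. For scale, 39 other neighbouring pairs of hairpins were listed on 1 strand within 50 kb. Both hairpins had a mean of 10 RPM or more, and the name of each higher arm was listed for 1 hairpin only. Hairpins outside these limits were passed over, so a pair can have others between its members. Over these 39 pairs and the 2 family pairs the median fold was 4.29 (quartiles 2.16 and 9.19). Of the 39 others, 15 were more equal than the SKA2 pair and 25 more equal than the chromosome 22 pair. Both family pairs were thus in the middle of the range. The ratio within the SKA2 pair moved by 1.09-fold between libraries and that within the chromosome 22 pair by 1.44-fold, where the median shift of the other pairs was 1.24-fold. A larger shift was seen in 32 of the 39 other pairs for the former and in 11 for the latter. In 2 of the 39 pairs, 1 strand (miR-365a-3p or miR-365b-3p) had the same value under both names, 80.5 and 98.8 RPM. Without these, 13 of 37 pairs were more equal than the SKA2 pair and 23 more equal than the chromosome 22 pair, and the shift was larger in 30 and 10.

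**Figure D2:**
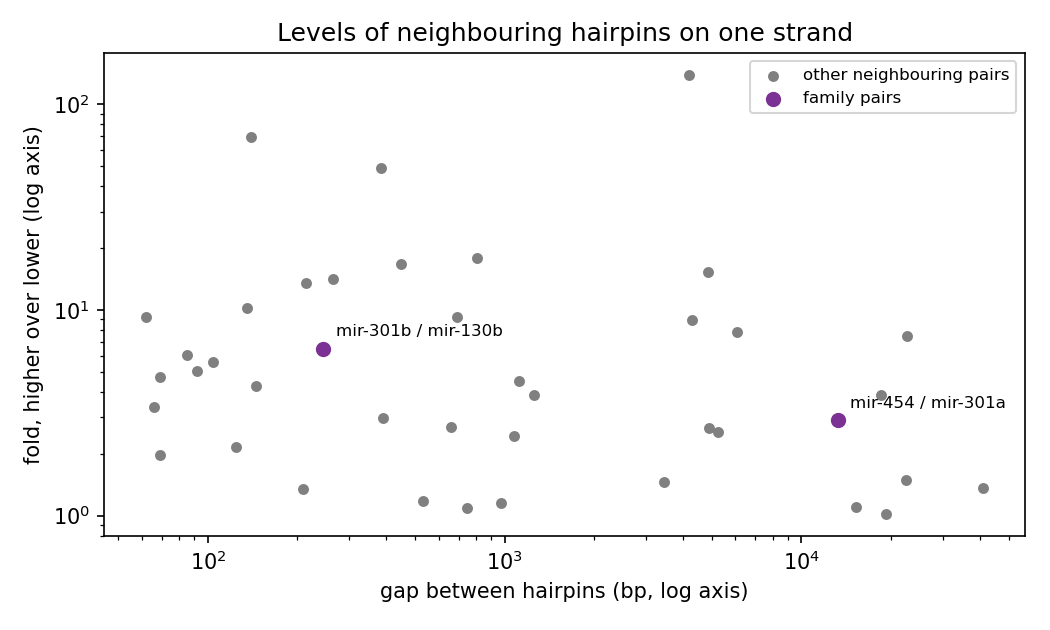
Fold between neighbouring hairpins on the same strand (higher over lower, by their higher arm, log axis) against the gap between them in bp (log axis), averaged over both libraries on the log scale. The 2 family pairs (purple; 6.46-fold at 245 bp and 2.90-fold at 13263 bp) lie among the 39 other pairs (grey).

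Arm use was compared next, as the share of a hairpin's reads that came from the 3p strand. In mir-301a this share was 98.5% (98.2 to 98.8) and 99.0% (98.8 to 99.2), with the 5p strand at 9.15 and 6.42 RPM. In mir-301b it was 98.8% (97.6 to 99.5) and 99.7% (99.3 to 99.9), and miR-301b-5p had only 8 and 4 reads (0.740 and 0.259 RPM). In mir-130b the 3p share was lower, 79.4% (78.4 to 80.4) and 85.3% (84.6 to 86.0), with miR-130b-5p at 121 and 90.0 RPM. In mir-454 it was 83.4% (81.9 to 84.8) and 87.4% (86.3 to 88.4), with miR-454-5p at 40.4 and 32.9 RPM.

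In these 4 hairpins arm use was therefore alike in mir-301a and mir-301b and did not group by locus. Both mir-301a and mir-301b gave almost no 5p strand, and their partners, mir-130b and mir-454, gave 1 read of 5p for about every 5 or 6 of 3p (mean ratio 4.84 ± 1.39 and 5.97 ± 1.34, SD, n = 2). The passenger strand miR-130b-5p (121 and 90.0 RPM) was above the neighbouring guide miR-301b-3p (60.3 and 97.3 RPM) in replicate 1 and below it in replicate 2. Among all hairpins whose arms were both in the table and together averaged at least 100 RPM, the 3p strand was over 2-fold above the 5p strand in both libraries in 34.3%. The 3 family hairpins at that level, mir-130b, mir-301a and mir-454, all did, while mir-301b lay under the 100 RPM minimum. The median 3p share of these 47 3p-dominant hairpins was 96.9%. Of the other 46, 39 were more one-sided than mir-130b, 36 more than mir-454 and 18 more than mir-301a.

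**Figure D3:**
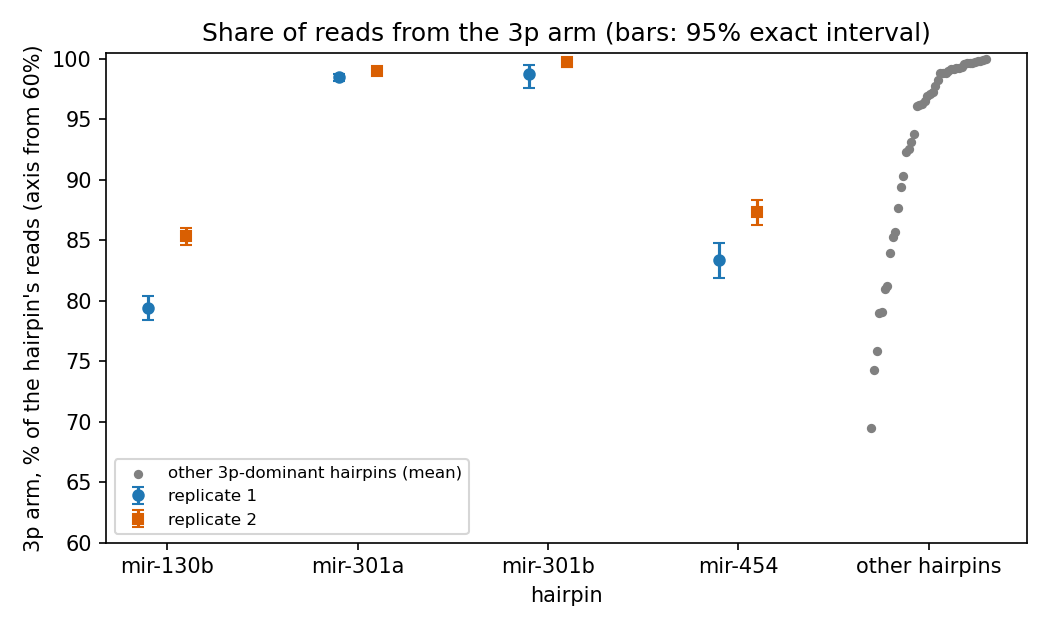
Share of each family hairpin's reads that came from the 3p strand (%, axis from 60%) in replicate 1 (circles) and replicate 2 (squares) with 95% exact intervals, beside the mean share of the other 3p-dominant hairpins at 100 RPM or more (grey, sorted). The mir-301a and mir-301b points lie at 98.5% or above, and mir-130b and mir-454 between 79.4% and 87.4%, with replicate 2 the higher in each hairpin.

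Between the libraries the strands moved in opposite directions by arm. All 5 of the 3p strands were higher in replicate 2 and all 4 of the 5p strands lower, a pattern noticed after the values were seen. Over all expressed names, 43.1% of 3p strands and 38.1% of 5p strands were higher in replicate 2. In each of the 4 hairpins with both arms, the lower arm took a smaller share in replicate 2. The same was true of 57.7% of all 137 hairpins at 100 RPM or more, and of 33 of the 47 that were 3p-dominant. In two-sided Fisher's exact tests of arm by library, with Benjamini-Hochberg adjustment over those 137 hairpins, the change passed 0.05 in mir-130b (adjusted p = 3.24e-21), mir-454 (2.02e-05) and mir-301a (0.0137), against a background of 59.1%. These tests compare 2 libraries and cover counting error only. With 59.1% of all these hairpins passing, and only 3 family hairpins tested, a passing change is not particular to the family.

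The size of the shifts was mostly small. MiR-301a-3p differed by 1.03-fold (1.002 to 1.067), miR-130a-3p by 1.08-fold (1.04 to 1.11), miR-130b-3p by 1.12-fold (1.08 to 1.16) and miR-454-3p by 1.12-fold (1.06 to 1.19), all higher in replicate 2. Between 66.0% and 90.7% of the expressed names differed by more than these 4. MiR-301b-3p differed most among the 3p strands, by 1.61-fold (1.47 to 1.77) on 652 and 1501 reads. Only 3.88% of expressed names differed by more. MiR-130b-5p was 1.35-fold, miR-454-5p 1.23-fold and miR-301a-5p 1.43-fold higher in replicate 1. The largest fold was that of miR-301b-5p, 2.69-fold higher in replicate 1, on only 8 and 4 reads. Its interval, as replicate 2 over replicate 1, ran from 0.0772 to 1.31 and so included no difference.

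In the test across all names (Fisher's exact test of the reads, two-sided, Benjamini-Hochberg adjustment over 869 names), 0 of the 9 rows were called different at an adjusted p below 0.05 and a fold above 2, against a background of 4.6%. Without the fold limit 7 of 9 passed, against 34.5% of all names tested and 69.9% of those at 10 RPM or more. An unadjusted p below 0.05 was seen in 8, but the share of all names at that limit is not given here, so this count cannot be set against a background. The 2 that did not pass Fisher's exact test were miR-301a-3p (adjusted p = 0.0919) and miR-301b-5p (0.189). The median ratio of replicate 2 over replicate 1 among expressed names was -0.10 on the log2 scale. When the libraries were scaled by it, all 9 rows kept their direction. MiR-301a-3p then passed the exact test (adjusted p = 2.48e-10), and miR-301a-5p (0.135) and miR-454-5p (0.119) did not.

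**Figure D4:**
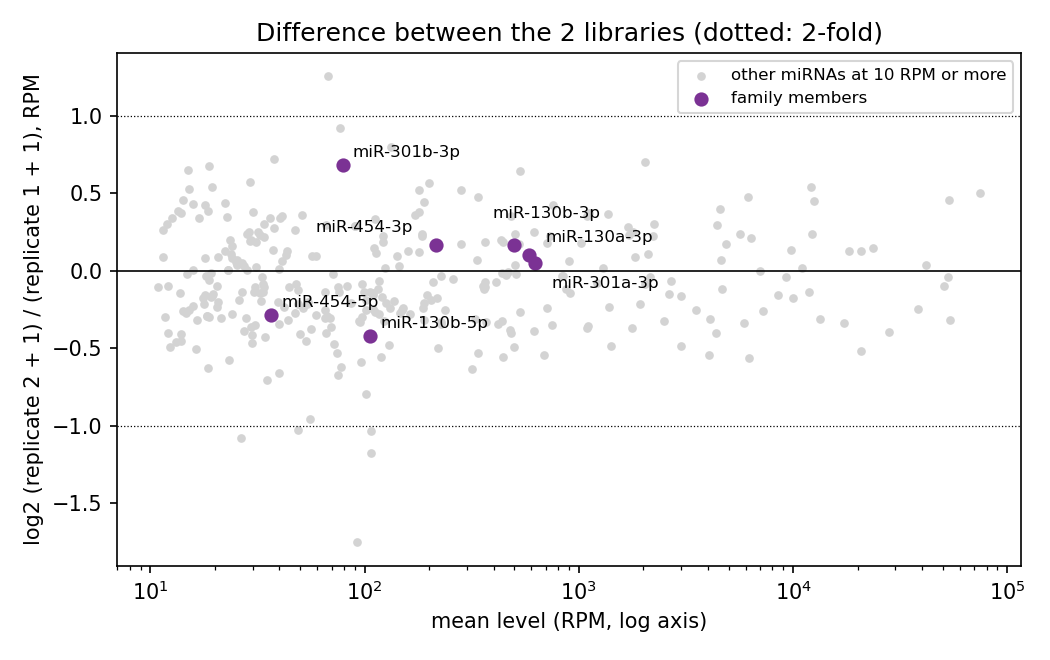
Log2 ratio of replicate 2 over replicate 1 (1 RPM added to each) against mean level (RPM, log axis) for the 335 miRNAs at 10 RPM or more in both libraries, with the 7 family rows among them in purple. The 3p strands lie above 0 and the 5p strands below, all inside the dotted 2-fold lines, and miR-301b-3p lies farthest from 0.

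Other miRNAs with the same or a related seed were listed for context. MiR-3666 and miR-4295 share bases 2 to 8 with the family in RefSeq and had no row among the deposited values. In 5 further miRNAs the seed overlaps that of the family by 6 bases in a shifted frame, as the capitals show.
miR-19b-3p: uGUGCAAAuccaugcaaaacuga
miR-148a-3p: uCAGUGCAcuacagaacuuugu
All 5 were expressed. MiR-148a-3p (5146 and 7161 RPM) and miR-148b-3p (2012 and 2485 RPM) stood above every family member, miR-19b-3p (902 and 831 RPM) stood above miR-301a-3p, miR-19a-3p (376 and 350 RPM) lay between miR-130b-3p and miR-454-3p, and miR-152-3p (151 and 193 RPM) between miR-454-3p and miR-301b-3p. The miR-148 and miR-152 strands were higher in replicate 2, as the family's 3p strands were, and the miR-19 strands lower.

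The miRNA outside the family nearest in level to each 3p strand was found as the smallest Euclidean distance of log2(RPM + 1) over the 2 libraries. MiR-221-5p (564 and 672 RPM) was nearest to both miR-130a-3p (distance 0.15) and miR-301a-3p (0.15), which were themselves 0.13 apart. MiR-500a-3p (460 and 542 RPM) was nearest to miR-130b-3p (0.055), miR-24-2-5p (214 and 204 RPM) to miR-454-3p (0.18) and miR-514a-3p (52.8 and 100.9 RPM) to miR-301b-3p (0.20). Distances over 2 libraries of 1 group describe level alone.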

How the data were processed

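Small RNA was sequenced from 2 libraries of DMSO-treated A375 cells. RNA was extracted with the miRNeasy kit, per the labels' protocols. The tools CASAVA 1.8 and cutadapt 1.2.1 are named in the submitters' processing notes. The aligner, the miRNA release, the build and the rule for reads that match more than 1 hairpin are not stated in these sources. Ligation of adapters is uneven across sequences, and comparisons of RPM between miRNAs carry that bias. Mature strands have nearly the same length, and RPM was not scaled by it.

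The authors deposited RPM per hairpin and mature name, each column summing to 1000000. All values (100%) were whole multiples of the smallest within 0.01 reads, and read assignments were recovered from them. The members have 1 hairpin each. For tests over all names, the highest copy of a name was used. Fisher's exact tests (scipy 1.17.1) were run on names with 10 or more reads in sum, adding 0.5 reads for folds, and were checked on simulated libraries. No other columns of values (0) were present. The series text calls the replicates independent and does not name separate cultures, so the spread and p-values may reflect technical variation in part.

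The named miRNAs were all member rows, names sharing or overlapping the seed, the nearest name outside the family to each 3p strand and the cell markers. The rule for the members uses no level, but the family and the lists were chosen with earlier results of these data known. Neighbouring hairpins were to be compared within 10 kb (10000 bp). The SKA2 pair lies farther apart, so the planned 50 kb alternative was printed. Alternatives concerned scaling, arms, fold and read limits, RPM minima, distance and each replicate. Leaving out neighbouring pairs with a value repeated under another name was chosen after seeing the data.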

Additional observations from a re-analysis of the deposited data

How the results depend on the processing

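The summed 3p level of 1999 RPM became 2565 RPM when copies of a name were reduced to 1 in the total, 2162 RPM without the most abundant miRNA and 2149 RPM with both arms. The reduced total also raised 7 of the 9 single levels by more than their SD. It ranged from 1908 to 2090 RPM when each replicate was left out. The SKA2 pair over the chromosome 22 pair, 1.47 with 3p strands, was 1.30 with both arms and 1.88 with the mean of log2 levels, and 1.39 to 1.55 without each replicate. Of the 9 rows, 0 were called different between libraries at a 2-fold limit, 1 (miR-301b-3p) at a 1.5-fold limit and 7 with no fold limit, while over all names 40, 81 and 300 were called. With a 10-fold limit, 1 family hairpin (mir-301a) stayed 3p-dominant in place of 3, against 32 of all 137 hairpins (23.4%) in place of 47. The other alternatives left these results, and the median fold of neighbouring pairs (4.86 within 10 kb), on the same side of their limits or within their spread. MiR-301b-5p, with 8 and 4 reads, is limited by depth. The replicate numbers pair no groups, since the libraries form a single group, and strands and loci were compared as ratios within each library.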

Other observations

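Grouped by bases 2 to 8 of the RefSeq sequence, available for 1317 of the 1497 names, the 4 family strands with a sequence summed to 1413 RPM, rank 35 of 1095 seeds. With miR-130a-3p added by name the sum was 1999 RPM, rank 30. Names without a sequence were not added to other seeds, so this second rank can favour the family. Of the 4 with a sequence, all but miR-454-3p begin with C. Among the higher arms of hairpins at 100 RPM or more, 14.0% of 114 names with a sequence began with C. U, the first base of miR-454-3p, began 62.3%. Among the 3p strands of these names, 17.6% began with C and 52.9% with U.

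The 3′ UTRs of BRAF in GENCODE 29 were searched, on the transcript strand, for the match to the family's bases 2 to 8, TTGCACT. It was found in 0 of the 5 protein-coding transcripts, which include UTRs of 7167 bp (BRAF-204) and 3932 bp (BRAF-220). Of other genes' longest 3′ UTRs within 20% of those lengths, 47.9% and 30.6% hold it. TGCACTA, the match to the same seed without base 8 but followed by an A, overlaps TTGCACT by 6 bases. This other form of seed match was found 1 time in BRAF-204, where 27.8% of UTRs of like length hold it. In BRAF-220 it was found 0 times (15.6%). A match is a description and not a site, and which annotated transcript corresponds to BRAF-X1 was not determined.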
